A study of Homo sapiens with 6 samples.

Results

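The values concern 10 genes of tumour necrosis factor (TNF) signalling, namely the ligands TNF, LTB, TNFSF10, CD70 and TNFSF15, the receptors TNFRSF1A, TNFRSF1B, TNFRSF9 and TNFRSF21, and the adaptor TRAF1. They were taken by gene symbol from a table of RNA-seq read counts with 56303 genes, and all 10 were found in it. The study measured RNA in T24 cells, an established human bladder cancer line, to ask what FBXL6 does in them. One group of 3 libraries came from cells transfected with a control small interfering RNA (siNC, genotype label WT) and the other of 3 libraries from cells transfected with siRNA against FBXL6 (siFBXL6, genotype label FBXL6 knockdown). RNA was taken 48 h after transfection, and the labels give 1 batch date for all 6 libraries. The libraries are labelled siFBXL6-1 to siFBXL6-3, while the methods name 2 siRNAs against FBXL6 and do not say which was used, so the number was read as a replicate and could also name an siRNA. The methods speak of independent replicates for quantitative data as a whole, and nothing states for these libraries that those of a group came from separate cultures, so the p-values measure the spread between these samples, which is possibly technical.

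Library totals were 58646515, 60967902 and 56814946 counts in siNC 1, 2 and 3, and 60968158, 60898556 and 60754015 counts in siFBXL6 1, 2 and 3. The epithelial label of the line was checked against marker genes, with levels in RPKM. This is CPM (counts scaled to library size times TMM normalization factors) divided by exon length in kilobases. Of 12 epithelial and urothelial markers 9 had counts in every library, KRT19 was the most abundant at 289 RPKM, and the summed level was 1047, 1012 and 1045 RPKM in siNC 1 to 3 and 931, 928 and 930 RPKM in siFBXL6 1 to 3. UPK1A, a defining marker of differentiated urothelium, had no count in any library. Of the other urothelial markers, KRT20 had 2 counts in siFBXL6 1 alone and UPK3A 0 to 3 counts a library, while UPK2 had 68 to 94. Of 13 leukocyte markers 8 had counts in every library, and CSF1R was the most abundant over all 6 libraries at 0.366 RPKM. In siNC alone CSF1R (0.256 RPKM) was below CD8A (0.312 RPKM) and CD14 (0.290 RPKM). The leukocyte sums were 1.12, 1.39 and 1.24 RPKM in siNC and 1.15, 1.28 and 1.53 RPKM in siFBXL6, and no marker of the list was at 0 in all 6 libraries. All 6 fibroblast markers had counts in every library, led by COL1A1 at 3.38 RPKM, with sums of 4.13, 4.37 and 4.03 RPKM in siNC and 3.79, 3.81 and 3.64 RPKM in siFBXL6. All 5 endothelial markers did as well, led by KDR at 0.175 RPKM, with sums of 0.413, 0.375 and 0.408 RPKM in siNC and 0.563, 0.445 and 0.551 RPKM in siFBXL6. The epithelial and fibroblast sums were lower and the endothelial sum higher in every siFBXL6 library, and the leukocyte sums overlapped. By the test described below, 7 of the 9 epithelial markers tested were called, 6 lower and 1 higher, which is 77.8% called and 66.7% lower, where 40.2% of all tested genes were called and 19.8% were lower. In the other lists, with 16.7% of fibroblast, 20% of endothelial and 33.3% of leukocyte markers called, single genes passed, and these are named after their values were seen: COL1A1 lower (log2 fold change -0.15, 1 of 6 fibroblast markers), PECAM1 higher (1.28, from 0.0739 to 0.179 RPKM, 1 of 5 endothelial markers), and among the 6 leukocyte markers tested CSF1R higher (0.90) and CD8A lower (-0.63, a call lost with DESeq2, without siNC 2 and without siFBXL6 1). By log2 fold change, TEK (-0.41) and VWF (-0.02) went against the endothelial sum, and COL1A2 (0.12) and DCN (0.05) against the fibroblast sum. None of these was called, and the other genes of both lists went with their sums. The part of the marker genes in the results was not tested.

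Ligands of the TNF superfamily act as trimers, on the cell surface or after release, and bind receptors of the TNF receptor superfamily. Receptors with a death domain assemble complexes that activate caspase-8 or, through TRAF adaptors and ubiquitin ligases, the NF-kappaB and MAP kinase pathways, and receptors without one recruit TRAF proteins directly. NF-kappaB in turn induces genes for cytokines and for regulators of its own pathway, TRAF1, BIRC3 and TNFAIP3 among them, and in carcinoma cells the same receptors pass on survival or death signals.

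FBXL6, the F-box protein targeted by the siRNA (chromosome 8, 144355431 to 144359376, GRCh38), had 362, 414 and 398 counts in siNC 1, 2 and 3 and 398, 344 and 350 counts in siFBXL6 1, 2 and 3. The groups overlapped, since the count in siFBXL6 1 lay among those of siNC. The log2 fold change was -0.13 (95% interval -0.31 to 0.05, n = 3 per group), edgeR's quasi-likelihood test with Benjamini-Hochberg adjustment gave an adjusted p of 0.247, and a two-sided exact permutation test gave p = 0.2, where 0.1 is the smallest that 3 against 3 libraries allow. A stretch of 31.7% of the FBXL6 exon bases also belongs to SLC52A2, a gene of the other strand, and whether the counting used the strand is not given in the sources used here. FBXL6 was not called lower in the RNA of these libraries, and the text below writes of the libraries labelled siFBXL6, with every direction taken from these labels. ACTB, a cytoskeletal gene often used as a reference, had a log2 fold change of 0.00 (adjusted p 0.996 by edgeR's quasi-likelihood test with Benjamini-Hochberg adjustment), and that sign flipped under upper-quartile and library-size scaling.

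A gene was called at an adjusted p under 0.05 (edgeR's quasi-likelihood test, Benjamini-Hochberg over 21298 genes tested). All 10 members passed the filter on low counts, but only 8 had all 6 libraries above its floor of 0.164 CPM, with TNF above it in 4 libraries and CD70 in 5. The filter takes CPM from library size alone, whereas the CPM printed for single genes include the TMM factors. Of the 10, 8 were called, where 40.2% of all tested genes were called in either direction. The members were chosen with earlier results of these data known, so shares above those of all genes can follow from that choice. The members split evenly, with 4 higher in the libraries labelled siFBXL6, where 20.5% of all genes were, and 4 lower, where 19.8% of all genes were. At 2-fold or more, 3 members were called, TRAF1 and TNFRSF1B higher and CD70 lower, where 2.92% of all genes were. Which members passed this limit depended on single libraries. The log2 fold change of TNFRSF1B was 0.99 without siNC 2, and that of TNFRSF9 was 1.09 without siNC 3 and 1.02 without siFBXL6 2. CD70 lost its call with DESeq2, without siNC 3 and without siFBXL6 1. The groups did not overlap in CPM for 8 members, where this held for 48.2% of all genes. The median log2 fold change was 0.01 over the members and -0.01 over all tested genes. None of the 10 signs flipped under the 3 other scalings tried, and the count of 4 higher and 4 lower was the same in each. It was 4 higher and 3 lower with DESeq2, without siNC 3 and without siFBXL6 1. The split of all genes did depend on scaling, with 4360 called higher and 4209 lower as reported, 3930 and 4777 with library size alone and 3972 and 4718 with upper-quartile factors. In bulk RNA, fewer cells with a transcript and less of it per cell cannot be told apart.

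**Figure D1:**
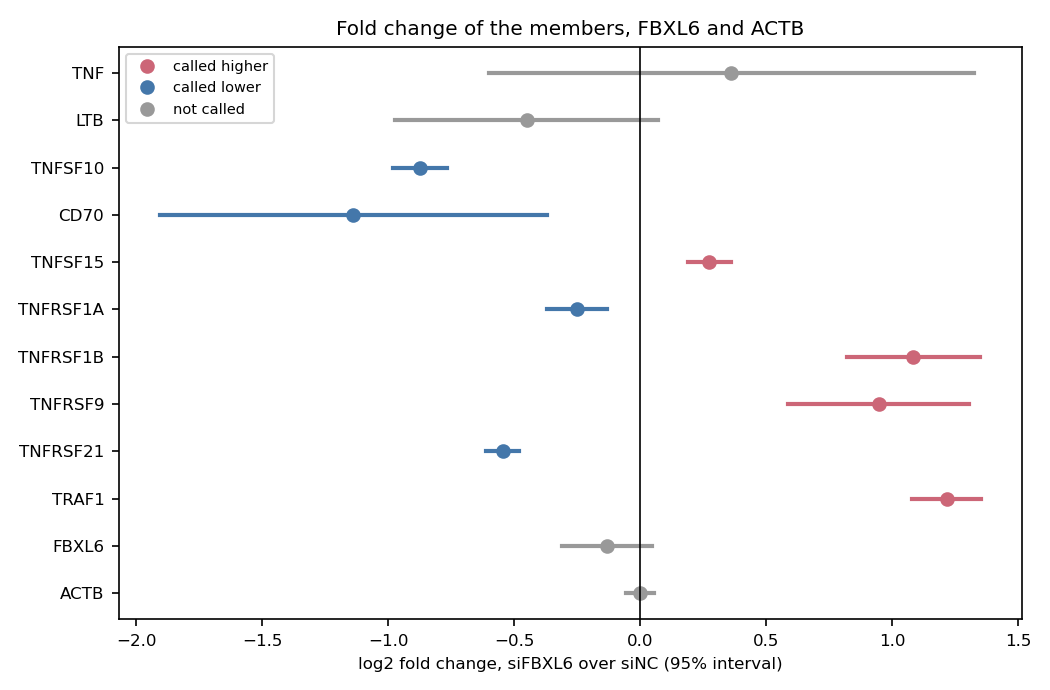
Log2 fold change of each member, FBXL6 and ACTB in the libraries labelled siFBXL6 over siNC (x axis), with 95% intervals derived from the F statistic of the edgeR test (lines, n = 3 per group). Colours mark genes called higher, called lower or not called at an adjusted p under 0.05, and the intervals run widest for TNF and CD70, the members with the fewest counts.

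Among the ligands, TNF itself, the founding cytokine of the family (chromosome 6, 31575567 to 31578336), had 13, 11 and 8 counts in siNC 1, 2 and 3 and 5, 17 and 20 counts in siFBXL6 1, 2 and 3. The library siFBXL6 1 was the lowest of all 6 and siFBXL6 2 and 3 the highest, so the groups overlapped. The means were 0.180 ± 0.0415 CPM in siNC and 0.232 ± 0.132 CPM in siFBXL6 (SD, n = 3). With a log2 fold change of 0.36, a 95% interval from -0.60 to 1.32 and an adjusted p of 0.591 by edgeR's quasi-likelihood test with Benjamini-Hochberg adjustment, TNF was not called, and the interval includes a 2-fold rise. LTB, the lymphotoxin beta subunit that anchors lymphotoxin alpha at the membrane (chromosome 6, 31580525 to 31582522), had 61, 51 and 37 counts in siNC 1 to 3 and 43, 37 and 31 counts in siFBXL6 1 to 3. The lowest siNC library lay within the range of the libraries labelled siFBXL6, and the means were 0.838 ± 0.200 and 0.613 ± 0.0984 CPM. The log2 fold change of LTB was -0.45 (95% interval -0.97 to 0.07), with an adjusted p of 0.170 by the same edgeR test with Benjamini-Hochberg adjustment, so LTB was not called. It ran from -0.60 to -0.27 with each library left out in turn.

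TNFSF10, the death ligand also known as TRAIL (chromosome 3, 172505508 to 172523507), had 1474, 1644 and 1482 counts in siNC 1, 2 and 3 and 832, 867 and 859 counts in siFBXL6 1, 2 and 3. Every library labelled siFBXL6 lay well below every siNC library, at means of 14.1 ± 0.319 against 25.9 ± 0.707 CPM. TNFSF10 was called lower, with a log2 fold change of -0.87 (SE 0.0520, a ratio of 0.546) and an adjusted p of 1.30e-15 by edgeR's quasi-likelihood test with Benjamini-Hochberg adjustment. CD70, the ligand of the costimulatory receptor CD27 (chromosome 19, 6583183 to 6604103), had 20, 27 and 29 counts in siNC 1 to 3 and 10, 13 and 12 counts in siFBXL6 1 to 3. All 3 siNC libraries were above all 3 siFBXL6 libraries, at a low level of 0.428 ± 0.0819 against 0.193 ± 0.0254 CPM. The log2 fold change of CD70 was -1.14 (95% interval -1.91 to -0.37, SE 0.377), and its adjusted p was 0.0149 by edgeR's quasi-likelihood test with Benjamini-Hochberg adjustment. That call was lost with DESeq2 (log2 fold change -1.15, adjusted p 0.0658), without siNC 3 (-1.01, 0.0756) and without siFBXL6 1 (-1.04, 0.0655), and over all 14 alternatives the adjusted p ran from 0.00472 to 0.0756. TNFSF15, the ligand also known as TL1A (chromosome 9, 114784635 to 114806126), had 2253, 2177 and 2028 counts in siNC 1 to 3 and 2616, 2733 and 2615 counts in siFBXL6 1 to 3. The groups did not overlap, and the gap between them was small beside the level, which was 36.4 ± 1.87 CPM in siNC and 43.97 ± 1.11 CPM in siFBXL6. TNFSF15 was called higher at a log2 fold change of 0.27 (SE 0.0415, a ratio of 1.21), with an adjusted p of 1.65e-06 by edgeR's quasi-likelihood test with Benjamini-Hochberg adjustment.

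Among the receptors, the 2 receptors of TNF were called in opposite directions. TNFRSF1A, the death-domain receptor (chromosome 12, 6328757 to 6342114), had 1132, 1120 and 1061 counts in siNC 1, 2 and 3 and 912, 901 and 1024 counts in siFBXL6 1, 2 and 3. The library siFBXL6 3 came nearest to siNC, and the groups did not overlap. TNFRSF1A was called lower, from 18.7 ± 0.632 to 15.7 ± 1.15 CPM, at a log2 fold change of -0.25 (SE 0.0583) and an adjusted p of 0.000654 by edgeR's quasi-likelihood test with Benjamini-Hochberg adjustment. TNFRSF1B, which has no death domain and recruits TRAF2 and TRAF1 (chromosome 1, 12166943 to 12209228), had 130, 106 and 112 counts in siNC 1 to 3 and 221, 265 and 267 counts in siFBXL6 1 to 3. Every library labelled siFBXL6 was far above every siNC library, at means of 4.16 ± 0.436 against 1.96 ± 0.254 CPM. TNFRSF1B was called higher at a log2 fold change of 1.08 (SE 0.130, a ratio of 2.12), with an adjusted p of 1.96e-08 by edgeR's quasi-likelihood test with Benjamini-Hochberg adjustment. TNFRSF9, the costimulatory receptor also known as 4-1BB (chromosome 1, 7915894 to 7943165), had 53, 61 and 72 counts in siNC 1 to 3 and 133, 109 and 124 counts in siFBXL6 1 to 3. The groups were well apart, at 1.05 ± 0.182 and 2.02 ± 0.200 CPM. TNFRSF9 was called higher at a log2 fold change of 0.95 (SE 0.176, a ratio of 1.93) and an adjusted p of 4.32e-05 by edgeR's quasi-likelihood test with Benjamini-Hochberg adjustment. TNFRSF21, the death receptor also known as DR6 (chromosome 6, 47231532 to 47309905), had 5752, 5992 and 5645 counts in siNC 1 to 3 and 4185, 4025 and 3941 counts in siFBXL6 1 to 3. All libraries labelled siFBXL6 were below all siNC libraries, and both groups were tight, at 67.1 ± 1.95 and 97.9 ± 0.769 CPM. TNFRSF21 was called lower at a log2 fold change of -0.55 (SE 0.0320, a ratio of 0.685), with an adjusted p of 8.78e-16 by edgeR's quasi-likelihood test with Benjamini-Hochberg adjustment.

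TRAF1, the adaptor that binds TNF receptors together with TRAF2 (chromosome 9, 120902393 to 120929173), had 404, 427 and 437 counts in siNC 1, 2 and 3 and 986, 1027 and 990 counts in siFBXL6 1, 2 and 3. The lowest library labelled siFBXL6 was far above the highest siNC library. TRAF1 was called higher, from 7.14 ± 0.404 to 16.6 ± 0.373 CPM (SD, n = 3), at a log2 fold change of 1.22 (SE 0.0666, a ratio of 2.32) and an adjusted p of 1.47e-16 by edgeR's quasi-likelihood test with Benjamini-Hochberg adjustment. None of the 10 members shares exon bases with another gene of the table.

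**Figure D2:**
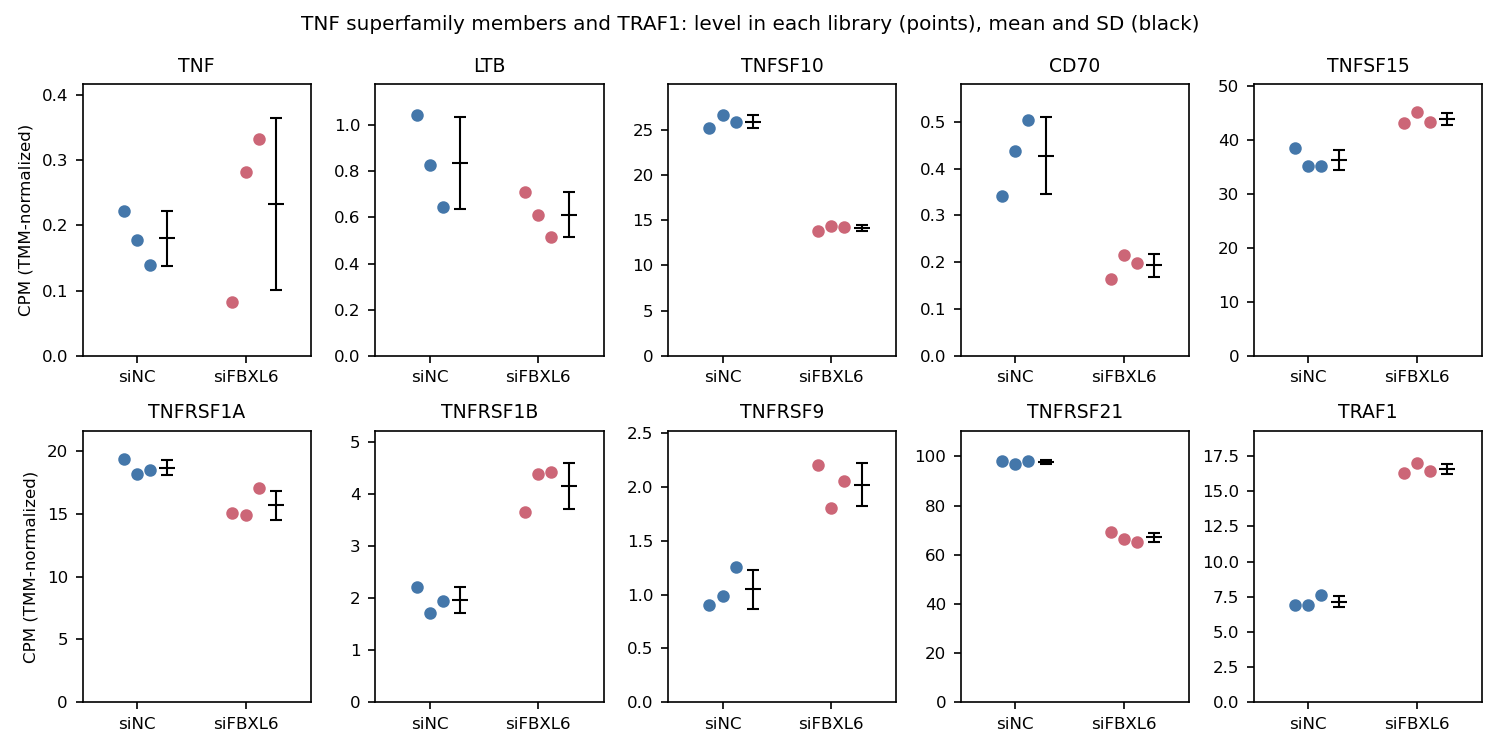
Level of each member in each library, in CPM normalized by TMM factors (y axis from 0, its own scale in each panel), with points for the 3 libraries of each group and the mean and SD in black. The groups overlap for TNF and LTB and are apart for the other 8 genes.

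Per exon length, the levels of the 10 members were ordered within each group. TNFRSF21 was highest in both, at 27.2 ± 0.214 RPKM in siNC and 18.7 ± 0.541 RPKM in siFBXL6, with no library of another member in its range. In siNC, TNFSF10 (7.45 RPKM) came next, then TNFRSF1A (4.66 RPKM) and TNFSF15 (4.61 RPKM), which overlapped each other, then TRAF1 (1.11 RPKM). Below these, LTB (0.546 RPKM) and TNFRSF1B (0.513 RPKM) overlapped each other, and CD70 (0.279 RPKM), TNFRSF9 (0.166 RPKM) and TNF (0.107 RPKM) followed without overlap between neighbours. In the libraries labelled siFBXL6, TNFSF15 (5.57 RPKM) came second, then TNFSF10 (4.07 RPKM) and TNFRSF1A (3.91 RPKM), which overlapped, then TRAF1 (2.57 RPKM) and TNFRSF1B (1.09 RPKM) without overlap. LTB (0.399 RPKM) and TNFRSF9 (0.319 RPKM) overlapped, as did TNF (0.138 RPKM) and CD70 (0.126 RPKM) at the end of the order. TNFRSF1A was above TNFRSF1B in both groups, at 4.66 ± 0.158 against 0.513 ± 0.0663 RPKM in siNC and 3.91 ± 0.288 against 1.09 ± 0.114 RPKM in siFBXL6. The distance between these 2 receptors was thus smaller in the libraries labelled siFBXL6, and that difference was not itself tested.

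Several members lie near other genes of the family. TNF, LTB and LTA, the gene of lymphotoxin alpha (31572054 to 31574324), are neighbours on chromosome 6, and none was called: LTA had 4, 6 and 2 counts in siNC 1 to 3 and 5, 4 and 4 counts in siFBXL6 1 to 3, which put it below the filter and left it untested. TNFRSF1A lies on chromosome 12 with LTBR (6375045 to 6391571) and CD27 (6444867 to 6451718), of which LTBR was called lower and CD27 was not called. CD70 lies on chromosome 19 between TNFSF9 (6530999 to 6535928) and TNFSF14 (6661253 to 6670588), and these genes were not tested against each other. CD70 was called lower, TNFSF9 was not called, and TNFSF14, a gene chosen after its values were seen, was called higher at a log2 fold change of 0.47 (adjusted p 0.00673 by edgeR's quasi-likelihood test with Benjamini-Hochberg adjustment). Without siNC 3 the call of TNFSF14 was lost (0.35, adjusted p 0.0540), and over 14 alternatives its adjusted p ran from 0.00130 to 0.0540.

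Sequence around the starts of the members was read from RefSeq windows (GRCh38.p14) that span 250 bases before to 50 after each start. Of the 10 members 9 matched, with 12 windows in all, 3 of them for TRAF1 and 2 for LTB. After a first look at the sequences, 7 patterns were searched on both strands: the kappaB motif, its looser form GGGNNNNNCC, which overlaps it, the AP-1 motif TGANTCA, the TATA box TATAAA, the interferon-response motif GAAANNGAAA, the STAT motif TTCNNNGAA and the grainyhead motif AACCGGTT. They occur in 11.3%, 58.7%, 7.71%, 11.5%, 3.57%, 7.66% and 0.134% of all 35116 windows, in that order. The kappaB motif was found in TNFRSF9 and LTB, the looser form in 7 members (LTB, TNF, TNFRSF1B, TNFRSF21, TNFRSF9, TNFSF10 and TRAF1), AP-1 in TNFRSF9 and TNFSF15, TATAAA in TNF and TNFSF10, the interferon-response motif in TNFRSF1B and TNFSF10, the STAT motif in TNFRSF9 and LTB, and the grainyhead motif in none. All 3 windows of TRAF1 held the looser form, and none of them held the kappaB, AP-1, TATA, interferon-response or STAT letters. The windows of all 6 members that hold one of these 5 motifs are printed, with 1 of the 2 windows of LTB, to show which members share one and how they were called. They are TNFRSF9 (chr1:7940790-7941089, minus strand, called higher), LTB (chr6:31582376-31582675, minus strand, not called), TNFSF15 (chr9:114792481-114792780, minus strand, called higher), TNFRSF1B (chr1:12166741-12167040, plus strand, called higher), TNFSF10 (chr3:172523381-172523680, minus strand, called lower) and TNF (chr6:31575315-31575614, plus strand, not called). Capitals mark kappaB, AP-1, TATA, interferon-response and STAT matches on either strand, each window is written along its gene's strand, and a match is a description of letters, not of a site or a cause.
TNFRSF9: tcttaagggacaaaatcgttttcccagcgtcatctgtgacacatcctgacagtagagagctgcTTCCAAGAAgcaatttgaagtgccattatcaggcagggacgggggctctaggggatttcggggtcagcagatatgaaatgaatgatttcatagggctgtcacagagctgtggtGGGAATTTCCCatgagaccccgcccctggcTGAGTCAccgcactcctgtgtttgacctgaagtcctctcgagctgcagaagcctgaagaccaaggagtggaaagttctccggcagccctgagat
LTB: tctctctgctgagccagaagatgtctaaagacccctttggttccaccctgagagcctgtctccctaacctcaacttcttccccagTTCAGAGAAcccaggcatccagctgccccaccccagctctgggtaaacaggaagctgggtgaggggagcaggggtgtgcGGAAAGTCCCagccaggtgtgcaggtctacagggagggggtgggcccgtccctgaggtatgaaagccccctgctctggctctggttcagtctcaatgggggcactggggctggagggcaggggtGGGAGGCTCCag
TNFSF15: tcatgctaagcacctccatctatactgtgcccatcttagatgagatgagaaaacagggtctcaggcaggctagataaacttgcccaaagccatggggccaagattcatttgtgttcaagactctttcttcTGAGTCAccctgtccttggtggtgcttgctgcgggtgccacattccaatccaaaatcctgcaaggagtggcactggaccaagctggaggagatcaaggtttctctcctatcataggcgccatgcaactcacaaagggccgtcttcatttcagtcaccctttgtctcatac
TNFRSF1B: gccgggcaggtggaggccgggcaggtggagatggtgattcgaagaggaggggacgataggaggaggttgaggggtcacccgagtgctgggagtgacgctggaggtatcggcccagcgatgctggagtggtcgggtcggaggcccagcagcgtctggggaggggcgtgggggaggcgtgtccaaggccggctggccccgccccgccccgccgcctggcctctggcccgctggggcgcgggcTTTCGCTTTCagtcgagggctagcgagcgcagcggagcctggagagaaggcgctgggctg
TNFSF10: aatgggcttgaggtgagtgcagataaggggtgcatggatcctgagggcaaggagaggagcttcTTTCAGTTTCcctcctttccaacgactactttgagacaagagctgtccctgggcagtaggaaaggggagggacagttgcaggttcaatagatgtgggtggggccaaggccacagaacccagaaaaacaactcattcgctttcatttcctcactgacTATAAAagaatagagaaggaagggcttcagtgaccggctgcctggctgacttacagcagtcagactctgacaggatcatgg
TNF: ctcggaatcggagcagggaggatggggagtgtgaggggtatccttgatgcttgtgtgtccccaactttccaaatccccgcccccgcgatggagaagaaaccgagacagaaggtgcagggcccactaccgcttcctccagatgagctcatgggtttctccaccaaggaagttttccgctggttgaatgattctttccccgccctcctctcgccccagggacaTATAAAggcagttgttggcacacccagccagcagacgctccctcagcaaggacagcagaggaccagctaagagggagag
In TNFRSF9 the kappaB letters lay from -74 to -64, counting both strands, and AP-1 from -44 to -38. The STAT letters lay from -187 to -179 in TNFRSF9 and from -165 to -157 in LTB, which held kappaB letters from -86 to -77 and from 39 to 48. In TNFSF15 the AP-1 letters lay from -120 to -114. The interferon-response letters lay on the opposite strand, from -10 to -1 in TNFRSF1B and from -187 to -178 in TNFSF10, which were called in opposite directions. TATAAA lay from -31 to -26 in TNFSF10 and from -29 to -24 in TNF. The starts of TNFRSF9 and TNFSF15 in RefSeq lie inside the longer genes of the count table, and which start the T24 cells used was not measured.

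The partners of the members, meaning their cognate ligands, receptors and complex partners, comprised 15 genes of which 14 were tested, with 4 called higher and 1 lower (35.7% called, near the 40.2% of all genes). For TNFSF10, the death receptor TNFRSF10A had 1587, 1719 and 1477 counts in siNC 1, 2 and 3 and 2369, 2309 and 2131 counts in siFBXL6 1, 2 and 3. The death receptor TNFRSF10B had 2154, 2179 and 2068 counts in siNC 1 to 3 and 3468, 3411 and 3245 counts in siFBXL6 1 to 3. In both receptors every library labelled siFBXL6 was above every siNC library, opposite to their ligand. TNFRSF10A was called higher at a log2 fold change of 0.48 (adjusted p 1.45e-10) and TNFRSF10B at 0.63 (adjusted p 2.11e-15), both by edgeR's quasi-likelihood test with Benjamini-Hochberg adjustment. The decoy receptors of TNFSF10, which are TNFRSF10C (0.04), TNFRSF10D (0.13) and the secreted TNFRSF11B (-0.16), were not called, with these log2 fold changes, and the 95% interval of TNFRSF10C, which lay under 1 CPM, ran from -0.60 to 0.69. Exon bases of TNFRSF10A and TNFRSF10B overlap genes on the opposite strand by up to 9.01% and 1.3%. Per exon length, TNFSF10 went from 7.45 ± 0.204 to 4.07 ± 0.0918 RPKM while TNFRSF10A went from 9.11 ± 0.364 to 12.7 ± 0.674 RPKM and TNFRSF10B from 6.99 ± 0.151 to 10.8 ± 0.354 RPKM.

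Of the other partners, LTBR, the receptor for lymphotoxin with LTB, had 5676, 5925 and 5444 counts in siNC 1, 2 and 3 and 5268, 5051 and 5140 counts in siFBXL6 1, 2 and 3. After normalization the groups did not overlap, at 95.9 ± 1.12 and 85.3 ± 1.74 CPM, and LTBR was called lower at a log2 fold change of -0.17 (adjusted p 3.70e-05, edgeR's quasi-likelihood test with Benjamini-Hochberg adjustment). APP, a ligand of TNFRSF21, was called higher at 0.23 (adjusted p 1.00e-07, the same edgeR test with Benjamini-Hochberg adjustment), opposite to its receptor. The receptors of TNFSF15, which are TNFRSF25 and the soluble decoy TNFRSF6B, had log2 fold changes of 0.03 and 0.16 and were not called, and every exon base of TNFRSF6B (100% of them) is shared with RTEL1-TNFRSF6B on the same strand. CD27, the receptor of CD70, stood at -0.01, TNFSF9, the ligand of TNFRSF9, at -0.13, and neither was called. A stretch of 37% of the CD27 exon bases also belongs to CD27-AS1 on the opposite strand, which had up to 83 counts. TNFRSF6B, CD27 and TNFSF9 lay under 1 CPM, and their 95% intervals were wide, from -0.51 to 0.83, from -0.69 to 0.66 and from -0.73 to 0.46. Of the proteins that bind TRAF1, TRAF2 (0.04) and the ubiquitin ligase BIRC2 (0.01) were not called. The sign of BIRC2 flipped with upper-quartile and library-size scaling. BIRC3, the paralogue of BIRC2, had 2165, 2232 and 1964 counts in siNC 1 to 3 and 4521, 4759 and 4723 counts in siFBXL6 1 to 3. Its groups were far apart, and BIRC3 was called higher at a log2 fold change of 1.11 (SE 0.0376, adjusted p 2.76e-22 by edgeR's quasi-likelihood test with Benjamini-Hochberg adjustment).

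**Figure D3:**
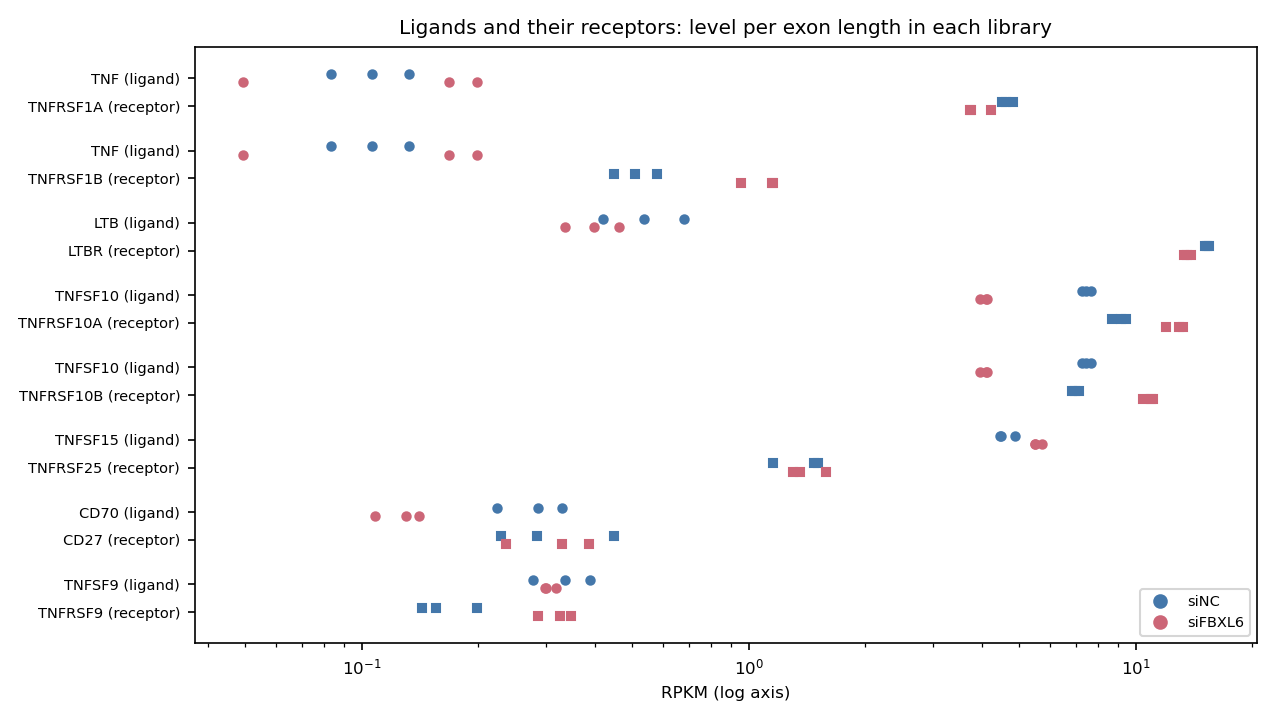
Level of ligands (circles) and their receptors (squares) in each library, in RPKM on a log axis, with siNC in blue and the libraries labelled siFBXL6 in red. TNFSF10 was lower and both of its death receptors higher in every library labelled siFBXL6.

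Beyond the members, each role of the pathway was described with a list of its genes, to be read beside the 40.2% of all tested genes called (20.5% higher, 19.8% lower). These lists too were chosen with earlier results of these data known. Of 18 ligands of the superfamily 12 were tested, 2 were called higher, 3 lower and 7 not, which is 41.7% called and near the share of all genes, with a median log2 fold change of -0.29, where the median of all tested genes was -0.01. That median of the ligands falls between LTB (-0.45) and TNFSF9 (-0.13), which were not called and lay under 1 CPM. Other ligands, TNF, CD70 and EDA among them, also lay under 1 CPM. The number of ligands called was 5, and it was 3 with DESeq2, 2 without siNC 3 and 3 without siFBXL6 1. Without the members, 7 ligands were tested, of which TNFSF14 was called higher and EDA lower (28.6% called), and the median was -0.13. EDA, the ectodysplasin gene, had 14, 18 and 26 counts in siNC 1 to 3 and 4, 6 and 12 counts in siFBXL6 1 to 3. Its groups did not overlap, and it passed the filter through siNC, the group where it was high, with all 3 siNC libraries but only 1 library labelled siFBXL6 over the floor. Its log2 fold change was -1.41 (adjusted p 0.0147, edgeR's quasi-likelihood test with Benjamini-Hochberg adjustment). The call of EDA was lost with DESeq2 (-1.43) and without siNC 3 (-1.12), siFBXL6 1 (-1.12) or siFBXL6 2 (-1.29). Of 29 receptors 22 were tested, 7 were called higher, 4 lower and 11 not (31.8% higher, 18.2% lower), with a median of 0.05. Without the members 18 receptors were tested, with 5 higher and 2 lower, which is 38.9% called and near the share of all genes. NGFR, a death-domain receptor that binds neurotrophins, had 134, 118 and 119 counts in siNC 1 to 3 and 54, 76 and 50 counts in siFBXL6 1 to 3. Every library labelled siFBXL6 was below siNC, and NGFR was called lower at -1.07 (adjusted p 1.00e-05, edgeR's quasi-likelihood test with Benjamini-Hochberg adjustment).

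Downstream of the receptors, all 26 genes of the TRAF and receptor complex list were tested, with 11 called higher, 7 lower and 8 not (42.3% higher, 26.9% lower), and a median log2 fold change of 0.05. TRAF1, BIRC3 and CYLD, a deubiquitinase that limits NF-kappaB signalling, had the smallest adjusted p of that list. CYLD had 1773, 1842 and 1705 counts in siNC 1 to 3 and 2865, 2840 and 2853 counts in siFBXL6 1 to 3. Its groups were far apart, at a log2 fold change of 0.66. In the death receptor list 11 of 12 genes were tested, 6 were called higher, 2 lower and 3 not (54.5% higher, 18.2% lower), with a median of 0.11, and the number called was 5 in place of 8 without siNC 1 and also without siFBXL6 3. The number called higher was 3 in both of these and 4 with DESeq2, with upper-quartile factors, with library size alone and without a filter. CFLAR, the inhibitor of caspase-8 activation also known as FLIP, had 1580, 1683 and 1536 counts in siNC 1 to 3 and 2710, 2732 and 2713 counts in siFBXL6 1 to 3. It was higher in every library labelled siFBXL6 and had a log2 fold change of 0.74 (adjusted p 1.23e-16, edgeR's quasi-likelihood test with Benjamini-Hochberg adjustment). DAXX (0.24) was called higher and DIABLO (-0.16), an antagonist of inhibitor-of-apoptosis proteins, lower, and 19.1% of the exon bases of DIABLO are shared with another gene on the same strand. In the list for release of TNF and decay of its mRNA, all 10 genes were tested, with 4 called higher, 3 lower and 3 not, which is 70% called, and a median of 0.02. TIMP3, an inhibitor of the sheddase that releases TNF, was called higher at 0.71, as was RHBDF2 at 0.38, which helps the sheddase to the surface, and the protease ADAM10 was called lower at -0.28.

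Of 32 genes known to be induced by TNF 30 were tested, 19 were called higher, 3 lower and 8 not (63.3% higher against 20.5% of all genes, 10% lower against 19.8%), with a median log2 fold change of 0.46, where the median of all genes was -0.01. Without TRAF1, the member it holds, 29 were tested, 18 were higher, 3 lower, and the median was 0.46. The list was chosen with earlier results of these data known, so its shares can follow from that choice, with or without TRAF1. The list shares TRAF1, BIRC3 and TNFAIP3 with the complex list, 3 of its 32 genes and 3 of the other's 26. The smallest adjusted p belonged to IL1B, CXCL2 and SOD2. The cytokine gene IL1B had 8279, 8730 and 8355 counts in siNC 1 to 3 and 24057, 23693 and 23873 counts in siFBXL6 1 to 3. The chemokine gene CXCL2 had 1006, 1095 and 975 counts in siNC 1 to 3 and 3297, 3380 and 3478 counts in siFBXL6 1 to 3. For SOD2, the mitochondrial superoxide dismutase, they were 14065, 15382 and 14124 in siNC 1 to 3 and 28821, 28664 and 29074 in siFBXL6 1 to 3. In each of these genes the libraries of a group lay close together and the groups far apart, and the log2 fold changes were 1.47, 1.70 and 0.96. The 3 called lower, which were chosen after their values were seen, were BCL3 (-0.79), JUNB (-0.57) and TNFAIP2 (-0.37), again as log2 fold changes. The 8 not called were NFKBIA (-0.04), NFKBIE (-0.15), TNIP1 (-0.02), CXCL3 (0.04), VCAM1 (0.71), CXCL10 (0.32), CCL2 (-0.10) and MMP9 (-0.24). Of these, VCAM1, CXCL10, CCL2 and MMP9 lay under 1 CPM, while NFKBIA stood at 136 CPM and TNIP1 at 689 CPM in siNC.

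**Figure D4:**
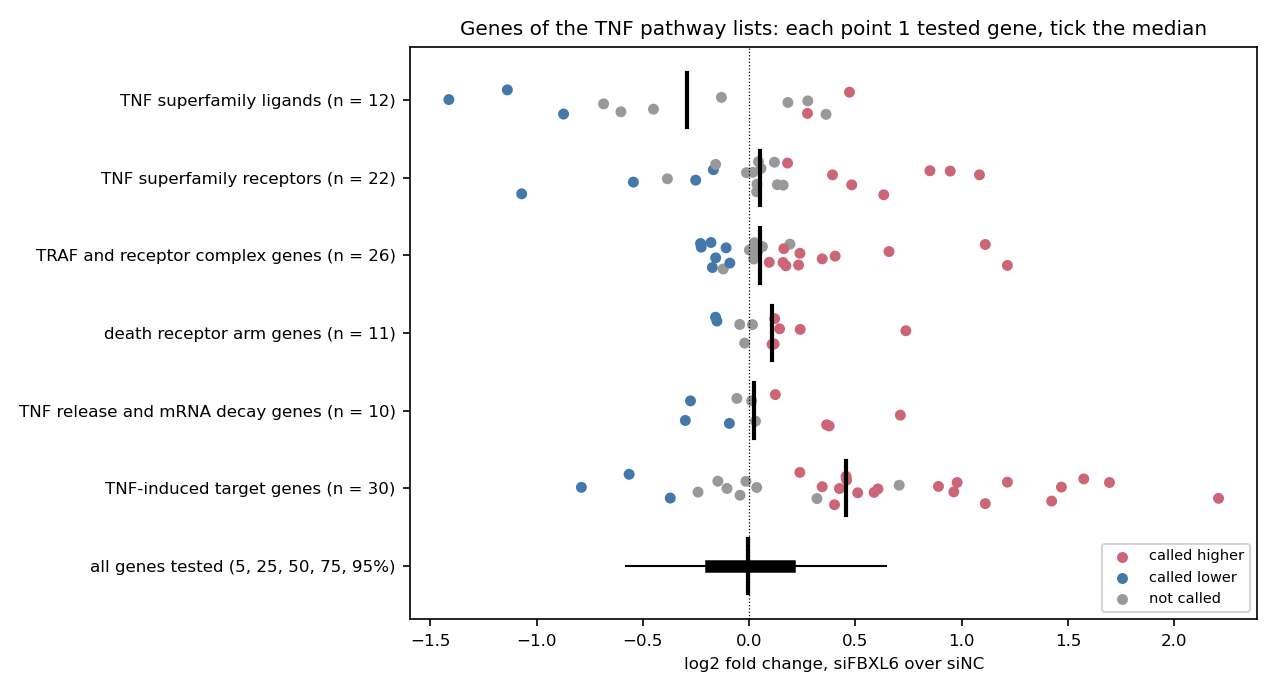
Log2 fold change in the libraries labelled siFBXL6 over siNC (x axis) for each tested gene of the 6 pathway lists (points, coloured by call), with the median of each list as a black tick and the 5th, 25th, 50th, 75th and 95th percentiles of all tested genes in the bottom row. The median of the TNF-induced genes is 0.46 and that of the ligands -0.29 (-0.13 without the members), and the other 4 lie between 0.02 and 0.11. Both medians of the ligands rest on genes under 1 CPM that were not called.

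The genes whose pattern was most like that of TNF over the 6 libraries, by Euclidean distance of mean-centred log2 CPM among 16193 genes with at least 1 CPM on average, were STX11 (0.688), LMLN-AS1 (0.743) and MAGI2 (0.757). TNF itself had 5 to 20 counts a library and lay under that level, so the likeness is to a pattern of few counts. The log2 fold changes of STX11, LMLN-AS1 and MAGI2 were 0.19, 0.65 and 0.14. LMLN-AS1 alone was called (adjusted p 0.0166, edgeR's quasi-likelihood test with Benjamini-Hochberg adjustment), although its groups overlapped (two-sided exact permutation p = 0.3), and it lost its call with DESeq2 (0.65) and without siNC 3 (0.52), siFBXL6 2 (0.47) or siFBXL6 3 (0.53). For TRAF1 the nearest were MMP1 (0.0885), CASP4 (0.107) and CD274 (0.113), at distances far shorter than those for TNF. Their log2 fold changes were 1.25, 1.25 and 1.22, and values near those of TRAF1 follow from a choice by likeness over the same libraries.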

How the data were processed

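The authors deposited 1 table of read counts per gene for 6 RNA-seq libraries of T24 cells, made without normalization, and 0 of its per-sample columns were left unused. The notes with the data name fastp 0.23.0 and STAR, the methods of the paper name Trimmomatic and HISAT2, and both name GRCh38 and featureCounts (Subread 1.5.1). The annotation and strand setting are not given in the sources used here. From the counts, genes were filtered with filterByExpr at its defaults (minimum count 10), normalized with TMM and tested between the 3 libraries labelled siFBXL6 and the 3 siNC libraries with the quasi-likelihood test of edgeR 4.0.16 under R 4.3.3 and limma 3.58.1, with Benjamini-Hochberg adjustment over all 21298 genes tested. RPKM used the exon lengths in the table. The fit was tested on simulated data, with the spread taken from these libraries, in which it recovered 163 of 200 genes changed 2-fold among 21298. Smaller changes, and a share of changed genes as large as that called here, were not simulated. A first limit on recovery was missed, and after that result was seen it was replaced by a limit for genes of at least 1 CPM. Many changed genes under 1 CPM were missed, the range of TNF, LTB, CD70, EDA, TNFRSF10C, CD27, TNFRSF6B and TNFSF9. Alternatives were DESeq2 1.42.0, limma-voom, 3 other scalings, no filter, 10 counts in every library, the replicate number as a block, a 1.5-fold limit and leaving out each library in turn. The members and lists were chosen with earlier results of these data known. Genes named were FBXL6, ACTB, the members, their listed partners, ligands and receptors called at 2-fold or more, the 3 genes with the smallest adjusted p of each other list, and the 3 genes most like TNF and TRAF1. TNFSF14, BCL3, JUNB, TNFAIP2, PECAM1, COL1A1, CSF1R and CD8A fall outside this rule and were chosen after their values were seen. The TNF-induced genes not called were also named outside it, as a set, and are not among the values counted over the alternatives. Overlaps of exons were computed with bedtools 2.31.1 and promoter windows came from RefSeq.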

Additional observations from a re-analysis of the deposited data

How the results depend on the processing

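Over 14 alternatives, the 10 members and FBXL6 gave 153 values, of which 150 kept their direction and their side of the threshold and 3, all of CD70, lost the call. CD70 was -1.15 with DESeq2 and ran from -1.28 to -1.01 when each library was left out in turn, with the call lost without siNC 3 and without siFBXL6 1. TNF ran from 0.02 to 0.76 with a library left out and was called in none of 13 alternatives, LTB from -0.60 to -0.27 and called in none of 14. Of 461 values of 33 other genes named by the rule, 432 kept both, 8 lost the call (EDA and LMLN-AS1) and 21 had the other sign, all in genes that were not called. Of 112 values of 8 genes chosen after their values were seen, 108 kept both and 4 lost the call (CD8A and, without siNC 3, TNFSF14). ACTB was -0.0192 with upper-quartile scaling, -0.0218 with library size alone and -0.000833 without a filter, BIRC2 -0.00595 with upper-quartile scaling and -0.00847 with library size alone, and CD27 0.0163 with limma-voom. With libraries left out, the ranges were -0.0176 to 0.0175 for ACTB, -0.10 to 0.25 for TNFRSF10C, -0.21 to 0.31 for CD27, -0.0775 to 0.11 for TNFRSF25, -0.20 to 0.38 for TNFRSF6B, -0.00725 to 0.0384 for BIRC2 and -0.00560 to 0.33 for MAGI2. The cause of these changes was not tested.

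With the replicate block, 8408 genes were called in place of 8569, 8 members were called, and CD27 stood at 0.000701. The same replicate number did not pair libraries (correlations of -0.0375, 0.0130 and -0.0101 over 16218 genes). Genes called at 2-fold or more numbered 622, 376 with at least 10 counts in every library, which tests fewer genes, and 1581 at a 1.5-fold limit. The ligands called numbered 5, 3 with DESeq2 and 2 to 5 with a library left out, and the death receptor genes 8 and 5 to 7. TNF and EDA had no value with 10 counts in every library. The scalings moved the median of all genes to -0.03 at most. TNF, CD70, LTB and EDA had 4 to 61 counts a library, and whether depth or spread between libraries set the width of their intervals was not tested.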
